A study of Homo sapiens with 6 samples.

Results

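The genes described here are the numbered zinc finger genes of human chromosome 19: 246 of the 20036 genes in the deposited table have a symbol made of ZNF, a number and at most 1 further letter, and lie on that chromosome. They were measured by RNA sequencing in KGN cells, an established line from a human ovarian granulosa cell tumour, labelled wild type in all samples. All cells received a small interfering RNA (siRNA) with a Lipofectamine reagent and were collected 48 hours later: siNC is the control siRNA, and siOGT1 and siOGT2 are separate siRNAs against the mRNA of OGT. The OGT protein, O-GlcNAc transferase, puts single N-acetylglucosamine sugars on proteins of the nucleus and cytosol, many transcription factors among them. Each group has 2 libraries, 6 in all, and nothing in the sources used here says that libraries of a group came from separate cultures, so p-values measure the spread between these libraries, which may be technical. Levels are FPKM, fragments scaled to transcript length and library depth, so genes can be set beside each other.

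Most proteins of this family carry a row of C2H2 zinc fingers, each a short fold held by a zinc ion that reads a few bases of DNA, and many carry a KRAB domain at the amino end. The KRAB A box binds TRIM28, which brings the histone methyltransferase SETDB1, HP1 proteins and histone deacetylases, and the bound DNA is packed into repressed chromatin. Many of these proteins bind transposable elements, and the genes lie side by side on chromosome 19 because the family grew by repeated local duplication. OGT is itself known to join the SIN3A co-repressor complex, which holds histone deacetylases.

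OGT itself stood at 22.4 and 23.4 FPKM in the siNC libraries, 13.8 and 12.9 in those of siOGT1, and 14.3 and 14.7 in those of siOGT2. All 4 siOGT libraries lay below both controls, at 58.3% of the control level with siOGT1 and 63.2% with siOGT2. The library totals recovered from the FPKM values ran from 16756649 to 21416489 reads, and the tested chromosome 19 ZNF genes had a median of 262.5 to 358.5 reads per library. Between libraries of a group the reads of these genes varied 1.5 to 2.0 times as much as counting error gives (chi-square per degree of freedom). Of the 10 granulosa markers, FOXL2 (5.34 FPKM with siNC), NR5A1 (18.3), AMH (6.95), GATA4 and INHBA were present, while FSHR was listed at 0, CYP19A1 and AMHR2 were at or near 0, and WT1 and INHA were low (means of 0.161 and 0.221 FPKM). The 4 leukocyte markers summed to 0.0960 to 0.429 FPKM and the 3 endothelial markers to 0.274 to 0.659 over the 6 libraries. Among the other marker lists, KRT18 rose with siOGT2 (21.8 to 25.9 FPKM) and LUM fell with siOGT1 (8.61 to 7.13). COL1A1 averaged 264 FPKM in the siNC libraries, beside 286 for siOGT1 and 281 for siOGT2; its call for the mean (log2 fold change 0.10) ended without any of 5 single libraries (siOGT1 replicate 2 is the exception) and with a trimmed mean of log ratios (0.07, adjusted p = 0.201). NR5A1 passed with siOGT1 (0.14, adjusted p = 0.0494), a call that ended without either siNC library (0.204 and 0.128) or either siOGT1 library (0.0856 and 0.189). Their part in the results below was not tested.

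The promoters of the 4 genes on which the results turn are printed here. They were picked for the changes of these genes and are not a sample of the family. They run from 250 bases before to 50 bases after the start of transcription, are taken from RefSeq on GRCh38.p14, and are written 5′ to 3′ on the strand of the gene. Capitals mark exact matches on either strand to CCGGAAG (the core of ETS factor sites), GGGCGG (the SP1 or GC box) and CCAAT (the box bound by NF-Y). No match overlaps another in these 4 promoters. ZNF616 (chr19:52139889-52140188, minus strand) and ZNF17 (chr19:57410911-57411210, plus strand) rose with both siRNAs, ZNF317 (chr19:9140147-9140446, plus strand) fell with both, and ZNF557 (chr19:7069453-7069752, plus strand) fell with siOGT2.
ZNF616: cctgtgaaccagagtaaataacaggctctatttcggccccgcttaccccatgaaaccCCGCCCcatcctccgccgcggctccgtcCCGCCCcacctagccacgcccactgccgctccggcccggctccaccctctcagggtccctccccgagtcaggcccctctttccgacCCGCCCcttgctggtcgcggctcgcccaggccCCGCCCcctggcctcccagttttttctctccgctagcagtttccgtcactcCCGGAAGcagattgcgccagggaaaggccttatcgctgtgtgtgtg
ZNF17: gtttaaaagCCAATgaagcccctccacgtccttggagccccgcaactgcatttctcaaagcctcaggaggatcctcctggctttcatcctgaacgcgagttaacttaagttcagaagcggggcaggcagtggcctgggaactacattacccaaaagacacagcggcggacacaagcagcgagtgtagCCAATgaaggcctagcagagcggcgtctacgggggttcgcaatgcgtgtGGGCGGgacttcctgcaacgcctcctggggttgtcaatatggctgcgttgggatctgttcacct
ZNF317: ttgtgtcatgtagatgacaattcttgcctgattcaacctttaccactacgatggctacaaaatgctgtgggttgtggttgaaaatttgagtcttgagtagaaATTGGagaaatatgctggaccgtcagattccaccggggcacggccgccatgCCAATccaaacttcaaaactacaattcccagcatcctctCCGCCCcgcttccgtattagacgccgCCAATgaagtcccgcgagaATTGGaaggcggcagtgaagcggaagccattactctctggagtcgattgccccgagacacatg
ZNF557: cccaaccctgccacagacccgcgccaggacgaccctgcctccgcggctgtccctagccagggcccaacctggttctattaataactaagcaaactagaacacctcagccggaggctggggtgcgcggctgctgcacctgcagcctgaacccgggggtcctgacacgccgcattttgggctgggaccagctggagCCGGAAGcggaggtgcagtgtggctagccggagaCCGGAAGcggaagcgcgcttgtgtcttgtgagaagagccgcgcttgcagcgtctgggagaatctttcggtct
The ZNF616 promoter holds 4 GC boxes and 1 ETS core, and that of ZNF17 holds 2 CCAAT boxes and 1 GC box. The ZNF317 promoter holds 4 CCAAT boxes and 1 GC box, and ZNF557 has 2 ETS cores. A match is a description of letters and not a site shown to be bound.

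Across the family the promoters share the ETS core more often than other genes do. A promoter was found for 216 of the 246 genes. CCGGAAG occurred in 98 of these, 45.4%, against 34.4% of 212 promoters of ZNF genes on other chromosomes and 14.4% of 15348 promoters of genes in the deposited table. It occurs in 10.7% of all 27305 promoters of that length. CCAAT was found in 53.7% of the chromosome 19 ZNF promoters, 43.9% of those of ZNF genes on other chromosomes, 36.6% of those of the deposited table and 35.7% of all. GGGCGG was in 67.6%, 59.9%, 59.2% and 44.6% of the same sets. TATAAA, the core of the TATA box, was in 1.85% and, with ZNF genes on other chromosomes, in 3.77%, against 9.62% and 12% of the wider sets. A YY1 site (AAGATGGCG) was in 3.70% of the 216, a cAMP response element (TGACGTCA) in 3.24%, the NRF1 palindrome in 2.31% and the BANP palindrome in 0.926%, against 2.80%, 2.64%, 1.72% and 0.697% of promoters of the deposited table. Median GC content was 59.8% for the family and 63.0% for promoters of the deposited table. Among genes called for the mean of both siRNAs the ETS core was in 7 of the 11 promoters of those that rose and 2 of the 4 of those that fell, counts too small to set against 45.4%.

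Chromosome 19 ZNF genes were broadly present and low. A mean of at least 1 FPKM over the 6 libraries, the limit for testing, was reached by 156 of the 246 (63.4%), compared with 52.6% of all genes, 73.6% of the 261 ZNF genes on other chromosomes and 43.0% of the 1222 other genes of chromosome 19. Among the 90 not tested, 82 were above 0 in some library and 8 were listed at 0 in all 6: ZNF729, ZNF98, ZNF492, ZNF99, ZNF667, ZNF471, ZNF835 and ZNF135. The median level was 1.57 FPKM over all 246 genes and 2.80 over those tested, against 7.96 for all 10547 tested genes of the table. Of the 156, 48 lay between 1 and 2 FPKM, 79 between 2 and 5, and 29 at 5 or more, 7 of them at 10 or more.

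ZNF146, which encodes a protein made almost wholly of 10 zinc fingers, was the most abundant gene of the family. Its level was 38.9 and 41.1 FPKM with siNC, then 41.2 and 43.0 with siOGT1, and 42.8 in each library with siOGT2. The siOGT libraries lay above the higher control, and the difference did not pass (log2 fold change 0.08 for the mean of both siRNAs, adjusted p = 0.0770). Next came ZNF317 (mean 23.8 FPKM), ZNF561 (14.8), ZNF441 (13.1) and ZNF480 (11.7). ZNF480 was level over the experiment, between 11.4 and 12.1 FPKM, with log2 fold changes of 0.01 and -0.01. At the other end, ZNF324B (mean 1.00 FPKM), ZNF69 (1.04) and ZNF555 (1.05) were just above the limit for testing, and ZNF439 (0.994), ZNF460 (0.950) and ZNF763 (0.940) just below it.

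ZNF91 and ZNF93, KRAB zinc finger genes with known retroelement targets, were present and did not pass. ZNF91, whose protein represses SVA elements, stood at 4.04 and 3.96 FPKM with siNC, then 4.43 and 4.15 with siOGT1, and 4.22 and 4.53 with siOGT2 (log2 fold change 0.09 for the mean, adjusted p = 0.180). ZNF93, known for repressing L1 elements, had 1.34 and 1.61, then 1.55 and 1.87, then 1.43 and 1.75 FPKM, so the groups overlapped (0.10, adjusted p = 0.392). This pair was chosen after its values were seen, for what is known of the proteins.

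The summed level of all 246 genes changed little. It was 617.8 and 621.8 FPKM with siNC, then 641.2 and 648.8 with siOGT1, and 625.8 and 626.9 with siOGT2, which is 0.309% to 0.323% of all FPKM in a library. The siOGT1 libraries were the highest in that sum, and siOGT2 lay just above siNC. In bulk RNA, fewer cells of a kind and less RNA per cell cannot be told apart. Levels within a library are also relative to all its other RNA.

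To ask which of these genes change when OGT is knocked down, a linear model (limma) was fitted to log2(FPKM + 1) over all 10547 tested genes, with Benjamini-Hochberg adjustment over them and a threshold of 0.05. The added 1 shrinks fold changes, most at low levels, and every log2 fold change below is on that scale. With siOGT1, 9 of the 156 genes rose and 1 fell, so 6.41% were called where 17.6% of all tested genes were (9.51% higher, 8.1% lower). With siOGT2, 12 rose and 8 fell, 12.8% against a background of 35.5% (22.1% higher, 13.4% lower). For the mean of both siRNAs, 13 rose and 4 fell, 10.9% against 31.1% (19.4% higher, 11.8% lower). Both siRNAs are compared with the same 2 siNC libraries. The share of these genes called was below that of all genes in each comparison.

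These counts changed in fits that leave out 1 library. Such a fit has fewer residual degrees of freedom for every gene of the table. The share of all tested genes called in each was not counted, so a drop is not particular to the family. Without siNC replicate 1, 5 rose and 1 fell for the mean of both siRNAs, and without siNC replicate 2, 6 rose and 1 fell. For siOGT1 the 9 became 4 without siNC replicate 1, 5 without siNC replicate 2 and 4 without siOGT1 replicate 1, and the 1 that fell became 2 without siOGT1 replicate 1. For siOGT2 the 12 became 7 without siNC replicate 1, 6 without siNC replicate 2 and 6 without siOGT2 replicate 2, and the 8 became 4, 2 and 5 with the same libraries left out and 3 without siOGT2 replicate 1. The balance of 12 higher and 8 lower for siOGT2 turned with the scaling: it was 5 and 10 with a trimmed mean of log ratios and with quantile normalization, and 8 and 9 with equal sums. Only 3 genes kept their call in each of the 6 fits that leave out 1 library: ZNF616, ZNF17 and ZNF317 for siOGT1 and for the mean, and ZNF616, ZNF17 and ZNF557 for siOGT2.

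Changes in the family were small. The median log2 fold change over the 156 genes was 0.05 with siOGT1 and -0.01 with siOGT2, beside 0.03 and 0.05 over all tested genes. Without siOGT1 replicate 2 the first was 0.03, and it ran from 0.02 to 0.07 over the alternatives, while the second ran from -0.03 to 0.01 and so has no settled sign. For the mean of both siRNAs the quartiles were -0.04 and 0.10 in the family, beside -0.05 and 0.11 over all tested genes. Small changes were thus not particular to the family. Between mean levels, 1 gene differed by at least 1.5-fold from siNC. For the gene of median error, the 95% interval of a log2 fold change reached 0.15 to either side for a single siRNA and 0.13 for the mean. Of the 139 genes not called for the mean, 138 had a log2 fold change within 0.25 of 0. A gene that did not pass can still have changed by an amount of that order. Counts at 1.5-fold and within 0.25 were not made for all tested genes, so no background stands beside them.

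**Figure D1:**
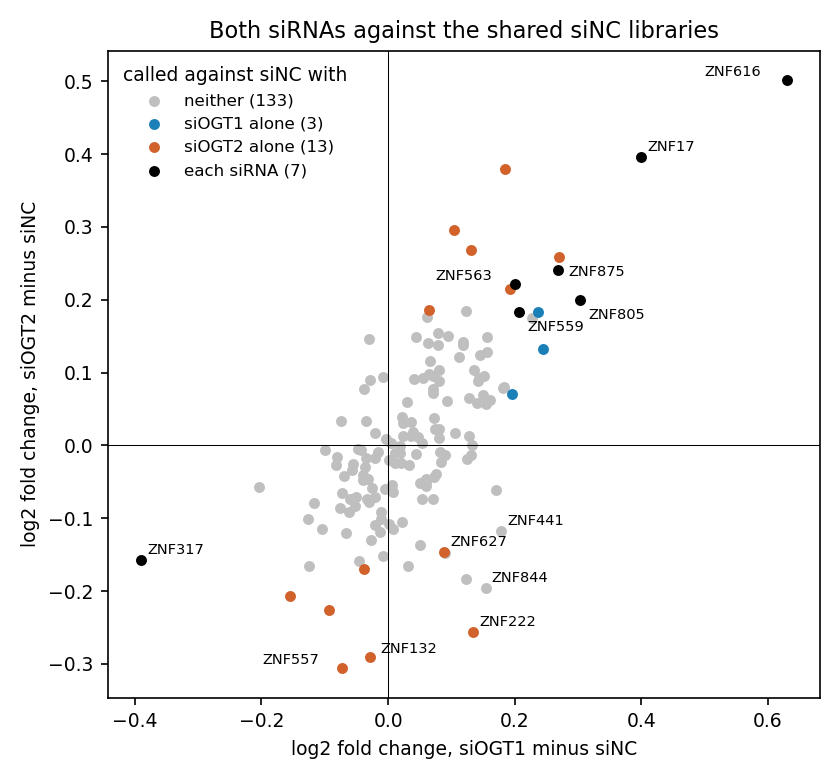
Log2 fold change, on the log2(FPKM + 1) scale, of each of the 156 tested chromosome 19 ZNF genes with siOGT2 (vertical axis) against that with siOGT1 (horizontal axis), colored by the comparisons in which the gene was called. Both axes share the siNC libraries, so part of their likeness comes from those controls; 7 genes were called with each siRNA, 3 with siOGT1 alone and 13 with siOGT2 alone.

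Of the 156 genes, 6 rose with each siRNA and 1 fell with each, and both shares lie below the background (7.25% of all tested genes were called higher with each siRNA and 5.11% lower, together 12.4%). Those that rose were ZNF616, ZNF17, ZNF805, ZNF875, ZNF563 and ZNF559, and the gene that fell was ZNF317. With quantile normalization, ZNF805, ZNF875 and ZNF559 lost their siOGT2 call (limma, adjusted p = 0.0681, 0.0551 and 0.0711). A trimmed mean of log ratios ended the same calls (0.0697, 0.0528 and 0.0760) and the siOGT1 call of ZNF563 (0.0537). The 7 became 4 without either siNC library, and 3 without siOGT1 replicate 1, siOGT2 replicate 1 or siOGT2 replicate 2. By limma, 0 genes were called in opposite directions with the siRNAs, also 0 at an unadjusted p under 0.05 with each and 0 by limma-voom on the recovered reads. Among all tested genes 0.54% were, by limma after adjustment. That share is so small that 0 of 156 does not set the family apart.

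ZNF616 had the largest change in the family. The gene (ENSG00000204611, GRCh38 chromosome 19, 52113091 to 52139922, minus strand) encodes a KRAB protein with 22 predicted fingers. Its level was 5.34 and 5.24 FPKM with siNC, then 8.54 and 8.94 with siOGT1, and 8.07 and 7.73 with siOGT2. All 4 siOGT libraries lay far above both controls, at 165% of the siNC mean with siOGT1 and 149% with siOGT2. With siOGT1 this is a log2 fold change of 0.63 (SE 0.047, adjusted p = 3.26e-05), and with siOGT2 of 0.50 (adjusted p = 6.54e-05). Each siOGT1 library lay above both siOGT2 libraries, with a log2 difference of 0.13 (limma, SE 0.047, unadjusted p = 0.0215). After adjustment over all tested genes, this gap missed the threshold (adjusted p = 0.0937). Between 517 and 940 reads per library stand behind these values. Of the 50-base words of its transcript with the longest coding sequence, 0.84% occur exactly in transcripts of another gene. Whether reads were shared with a paralog was not tested. The exons of ZNF616 overlap those of 1 other annotated gene on the same strand, and how the counting assigned such reads is not stated.

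The nearest tested genes of the family on either side of ZNF616 did not pass. Genes of other kinds nearby were not looked at, and distances are between lowest coordinates. ZNF836, 40773 bases away, stood at 1.26 and 1.22 FPKM with siNC, then 1.44 and 1.51 with siOGT1, and 1.43 and 1.35 with siOGT2 (log2 fold change 0.12 for the mean, adjusted p = 0.151). ZNF841, 48625 bases away on the other side, had log2 fold changes of 0.05 and 0.00 (adjusted p = 0.577 and 0.970). The siOGT libraries of ZNF836 were above both controls but by less than the test could separate from spread.

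ZNF17 rose about equally with both siRNAs. It lies at 57411163 to 57421939 on the plus strand (ENSG00000186272) and encodes a KRAB protein with 18 predicted fingers. It had 2.60 and 3.06 FPKM with siNC, then 3.96 and 4.12 with siOGT1, and 4.01 and 4.05 with siOGT2. The siOGT libraries lay close together and above both controls. The log2 fold change was 0.40 with each siRNA (SE 0.066, adjusted p = 0.00318 and 0.00191). Of its 50-base words, 18.4% occur in another gene, and its exons overlap 1 other gene on the same strand, so part of its reads could belong elsewhere. Its nearest tested neighbour within the family, ZNF548, has its lowest coordinate 21313 bases away and did not pass. The log2 fold changes of ZNF548 were 0.17 with siOGT1 and -0.06 with siOGT2 (adjusted p = 0.134 and 0.533). On the other side, ZNF749 starts 24166 bases from the start of ZNF17. ZNF749 rose with siOGT2, from 1.53 and 2.40 FPKM to 2.86 and 2.78 (0.38, adjusted p = 0.0357). Its 2 siNC libraries are far apart and its call ended without siNC replicate 1 (0.17, adjusted p = 0.208) and without either siOGT2 library (adjusted p = 0.125 and 0.112). With siOGT1, at 2.16 and 2.53 FPKM, ZNF749 overlapped siNC, and for the mean of both siRNAs it did not pass (0.28, adjusted p = 0.0668).

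The other genes that rose for the mean of both siRNAs reached at most 132% of the control level. ZNF253 went from 1.79 and 1.52 FPKM with siNC to 2.26 and 2.14 with siOGT1 and 2.39 and 1.97 with siOGT2 (log2 fold change 0.26, adjusted p = 0.0210). ZNF875, long known as HKR1, went from 3.17 and 3.84 to 4.39 and 4.44 and to 4.39 and 4.23 (0.25, adjusted p = 0.0136). ZNF805 went from 1.80 and 1.90 to 2.63 and 2.40 and to 2.24 and 2.30 (0.25, adjusted p = 0.00881). In each of these 3 genes every siOGT library lay above both siNC libraries. Each gene named for the mean had to meet a rule of this kind, so it adds no support to the calls. The 4 siOGT libraries lay on 1 side of both controls in 41.7% of all tested genes and in 26.9% of the 156. ZNF563 went from 3.96 and 3.91 to 4.85 and 4.49 and to 4.73 and 4.78 FPKM (0.21, adjusted p = 0.00830). ZNF180 went from 2.66 and 2.25 to 3.08 and 3.04 and to 2.95 and 2.87 (0.21, adjusted p = 0.0251). ZNF675, whose protein is known to bind TRAF6 and dampen its signalling, went from 2.65 and 2.60 to 3.11 and 3.19 and to 3.49 and 2.95 (0.20, adjusted p = 0.0302). Here too no siOGT library fell among the controls, again as the rule for naming required.

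The last genes in the top 10 of the rise were of different kinds. ZNF428, a small protein with 1 predicted finger, went from 3.80 and 3.59 FPKM to 4.16 and 4.12 with siOGT1 and 4.94 and 4.38 with siOGT2 (0.20, adjusted p = 0.020). Of its 50-base words 20.4% occur in another gene, and its exons overlap 1 gene on the opposite strand, so part of its reads could belong elsewhere. ZNF587B went from 2.82 and 2.94 to 2.94 and 3.41 and to 3.80 and 3.72 (0.20, adjusted p = 0.0265), but 38.2% of its 50-base words occur in another gene and its exons overlap 2 genes on the same strand, so its level is uncertain. The remaining genes that rose, named after their values were seen, were ZNF559 (0.20, adjusted p = 0.0181), ZNF787 (0.19, adjusted p = 0.0199) and ZNF766 (0.13, adjusted p = 0.0403).

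The calls of these smaller rises depended on the control libraries. For the mean of both siRNAs and without siNC replicate 1, ZNF875 (adjusted p = 0.130), ZNF805 (0.0763), ZNF563 (0.0509), ZNF675 (0.116), ZNF428 (0.0596) and ZNF587B (0.151) no longer passed. Without siNC replicate 2, the same held for ZNF253 (adjusted p = 0.181), ZNF563 (0.0617), ZNF180 (0.226), ZNF675 (0.150), ZNF428 (0.146) and ZNF587B (0.0914). ZNF559 lost its call without either siNC library (adjusted p = 0.0993 and 0.0888), ZNF787 without siNC replicate 2 (0.176), and ZNF766 without any 1 of the 6 (adjusted p between 0.0514 and 0.286). Fold changes also moved: that of ZNF875 was 0.15 without siNC replicate 1, and without siNC replicate 2 that of ZNF180 was 0.12 and that of ZNF766 was 0.09. Leaving out an siOGT library ended the call of ZNF180, ZNF253, ZNF675 and ZNF587B in some fits, with adjusted p between 0.0504 and 0.0631. No direction changed.

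**Figure D2:**
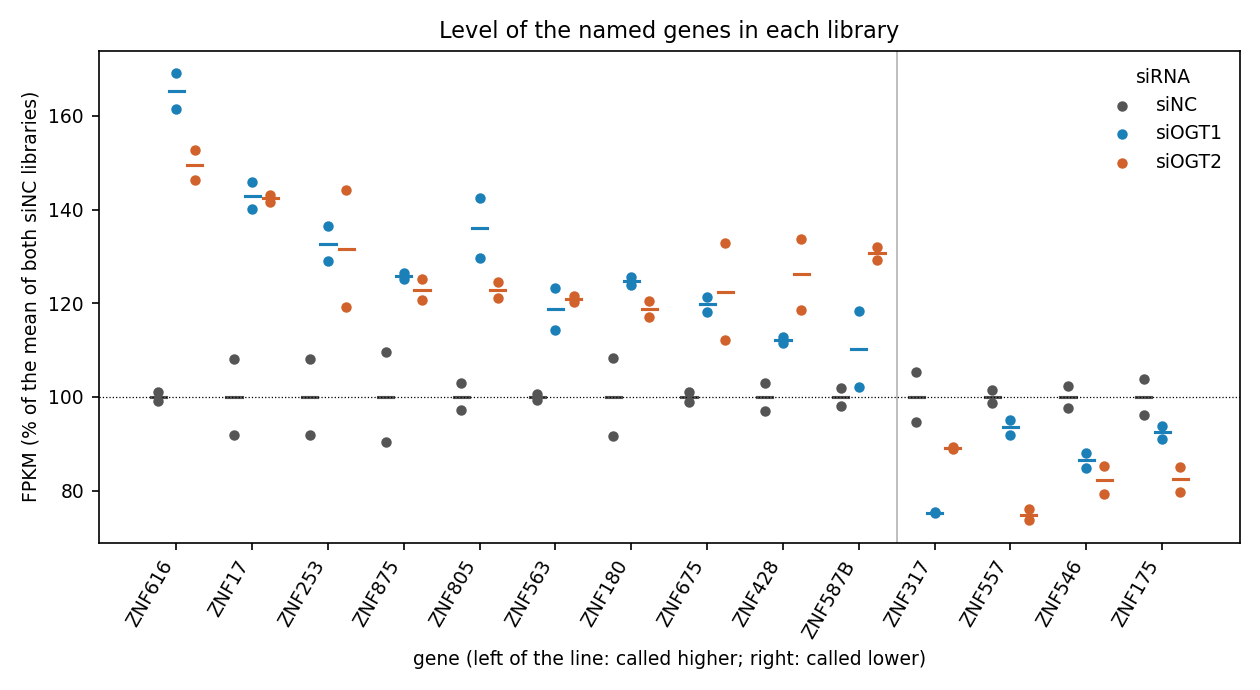
FPKM of the 14 chromosome 19 ZNF genes named for the mean of both siRNAs, in each library, as a percentage of the mean of the 2 siNC libraries of that gene; points are libraries and short bars group means (n = 2). ZNF616 reaches 165% with siOGT1, ZNF17 143% and 142% with the siRNAs, and ZNF317 falls to 75.3% with siOGT1 and 89.2% with siOGT2.

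ZNF317 was the clearest fall. It lies at 9140380 to 9163424 on the plus strand (ENSG00000130803), encodes a KRAB protein with 13 predicted fingers and is the second most abundant gene of the family, with 1888 to 2887 reads per library. Its level was 25.5 and 28.4 FPKM with siNC, then 20.3 in each library with siOGT1, and 23.99 and 24.12 with siOGT2. All siOGT libraries lay below both controls, and the siOGT1 libraries were the lowest. With siOGT1 the log2 fold change came to -0.39 (SE 0.047, adjusted p = 0.000530), with siOGT2 to -0.16 (adjusted p = 0.0293), and the siRNAs differed by -0.23 (adjusted p = 0.00982). The siOGT2 call ended without siNC replicate 2 (-0.08, adjusted p = 0.204) and without either siOGT2 library (adjusted p = 0.104 and 0.101). Their difference no longer passed without either siOGT2 library (adjusted p = 0.0502 and 0.0642). Only 0.199% of its 50-base words occur in another gene. Its nearest tested neighbours within the family, ZNF558 and ZNF699, did not pass (adjusted p = 0.489 and 0.135 for the mean).

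ZNF557 fell with siOGT2. The gene (ENSG00000130544, 7069444 to 7087968, plus strand) lies outside the clusters and encodes a KRAB protein with 10 predicted fingers. It stood at 3.20 and 3.11 FPKM with siNC, then 2.90 and 3.0 with siOGT1, and 2.40 and 2.32 with siOGT2. The siOGT2 libraries were well below the rest, and the siOGT1 libraries just below the controls. With siOGT2 its log2 fold change was -0.31 (SE 0.056, adjusted p = 0.00326), and with siOGT1 it was -0.07 (adjusted p = 0.414). For the mean it was -0.19 (adjusted p = 0.0174), which did not pass without siNC replicate 1 (adjusted p = 0.115) or siNC replicate 2 (0.0738).

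A pair of further genes fell for the mean of both siRNAs. ZNF546 went from 2.94 and 3.08 FPKM with siNC to 2.55 and 2.65 with siOGT1 and 2.56 and 2.39 with siOGT2 (-0.18, adjusted p = 0.0270). ZNF175, also called OTK18, went from 4.59 and 4.95 to 4.34 and 4.47 and to 3.80 and 4.06 (-0.16, adjusted p = 0.0350). Every siOGT library of each lay below both controls, as the rule for naming required. Both calls ended without siNC replicate 1 (adjusted p = 0.0816 and 0.0601), without siNC replicate 2 (0.169 and 0.246) and without siOGT1 replicate 1 (0.0610 and 0.0751). That of ZNF546 also ended without siOGT2 replicate 2 (adjusted p = 0.0678), and that of ZNF175 without siOGT1 replicate 2 (0.0526) and siOGT2 replicate 1 (0.0823).

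Some genes passed with 1 siRNA. ZNF787 rose with siOGT1, from 4.03 and 3.64 FPKM to 4.598 and 4.852 (0.24, adjusted p = 0.0189), with 4.33 and 4.26 in the siOGT2 libraries; the call ended without siNC replicate 2 (adjusted p = 0.123) or siOGT1 replicate 2 (0.103). ZNF132 fell with siOGT2, from 1.505 and 1.32 to 0.995 and 0.946 FPKM (-0.29, adjusted p = 0.0142), with 1.42 and 1.30 with siOGT1. This rests on 58 to 111 reads per library and did not pass without siNC replicate 1 (adjusted p = 0.0992) or siOGT2 replicate 2 (0.0703). ZNF222 fell with siOGT2, from 2.78 and 2.61 to 1.85 and 2.36 FPKM (-0.26, adjusted p = 0.0359), a call that ended without either siNC library (adjusted p = 0.160 and 0.0844) and without siOGT2 replicate 1 (0.211). The fold change was -0.14 without that library, and 19.3% of its 50-base words occur in another gene. With siOGT1, ZNF222 was at 2.96 and 3.15 FPKM, above both controls.

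The siRNAs were also compared with each other directly. Of the 156 genes, 6 were higher with siOGT1 than with siOGT2 and 1, ZNF317, was lower, 4.49% where 16.6% of all tested genes were called (8.35% higher, 8.24% lower). Next to ZNF317 and ZNF222 (difference 0.39, adjusted p = 0.0112), they include 3 genes from 1 cluster of the short arm (ZNF653 to ZNF791). These are 3 of its 15 tested genes, 20%, where 8.35% of all tested genes were higher. Whether position played a part was not tested. ZNF441 stood at 13.3 and 12.3 FPKM with siNC, then 13.8 and 15.5 with siOGT1, and 11.7 in each library with siOGT2 (0.30, adjusted p = 0.00733). ZNF627 stood at 9.41 and 9.33, 9.71 and 10.4, and 8.25 and 8.49 (0.23, adjusted p = 0.00755). ZNF844 stood at 2.70 and 2.45, 3.06 and 2.89, and 1.88 and 2.37 (0.35, adjusted p = 0.0186). In each of the 3 the siOGT1 libraries lay above the controls and the siOGT2 libraries below them. ZNF132 (0.26, adjusted p = 0.0381) and ZNF557 (0.23, adjusted p = 0.0216) make up the rest.

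No call between the siRNAs held in all 6 fits with a library left out. ZNF132 lost it in each (adjusted p between 0.0502 and 0.170), ZNF557 without any 1 of the 4 siOGT libraries (between 0.0623 and 0.108), and ZNF441 without siOGT2 replicate 2 (0.0509). ZNF627 lost it without siOGT2 replicate 1 (adjusted p = 0.0503), ZNF844 without siOGT1 replicate 1 (0.0879) or siOGT2 replicate 1 (0.105), and ZNF222 without siOGT1 replicate 2 (0.0587) or siOGT2 replicate 1 (0.0603). The 6 higher became 3 without siOGT1 replicate 1 and fell to 1 without siOGT2 replicate 1. The 1 lower became 2 without siOGT1 replicate 1 or siOGT1 replicate 2, and 0 without siOGT2 replicate 2.

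The calls were spread along the chromosome. With neighbouring starts at most 500 kb apart and at least 5 genes to a run, 232 of the 246 genes fell into 10 clusters and 14 lay outside; 83 genes are on the short arm and 163 on the long arm. For the mean of both siRNAs, the cluster of 43 genes from ZNF264 to ZNF446, near the end of the long arm (57191500 to 58481230), had 3 of its 27 tested genes higher: ZNF17, ZNF805 and ZNF587B. That is 11.1%, where 19.4% of all tested genes rose. The cluster of 39 genes from ZNF175 to ZNF331 (51571298 to 53580269) had 2 of 29 higher and 1 lower. The cluster from ZNF101 to ZNF254 (19668796 to 24129961), beside the centromere, was the lowest in level, with a median of 0.829 FPKM over its 37 genes, and 2 of its 18 tested genes, ZNF253 and ZNF675, were higher, again 11.1%. In no cluster were more than 3 genes called for the mean. Cluster medians ran from -0.04 to 0.12 on the log2 scale, the highest of them over 3 tested genes.

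**Figure D3:**
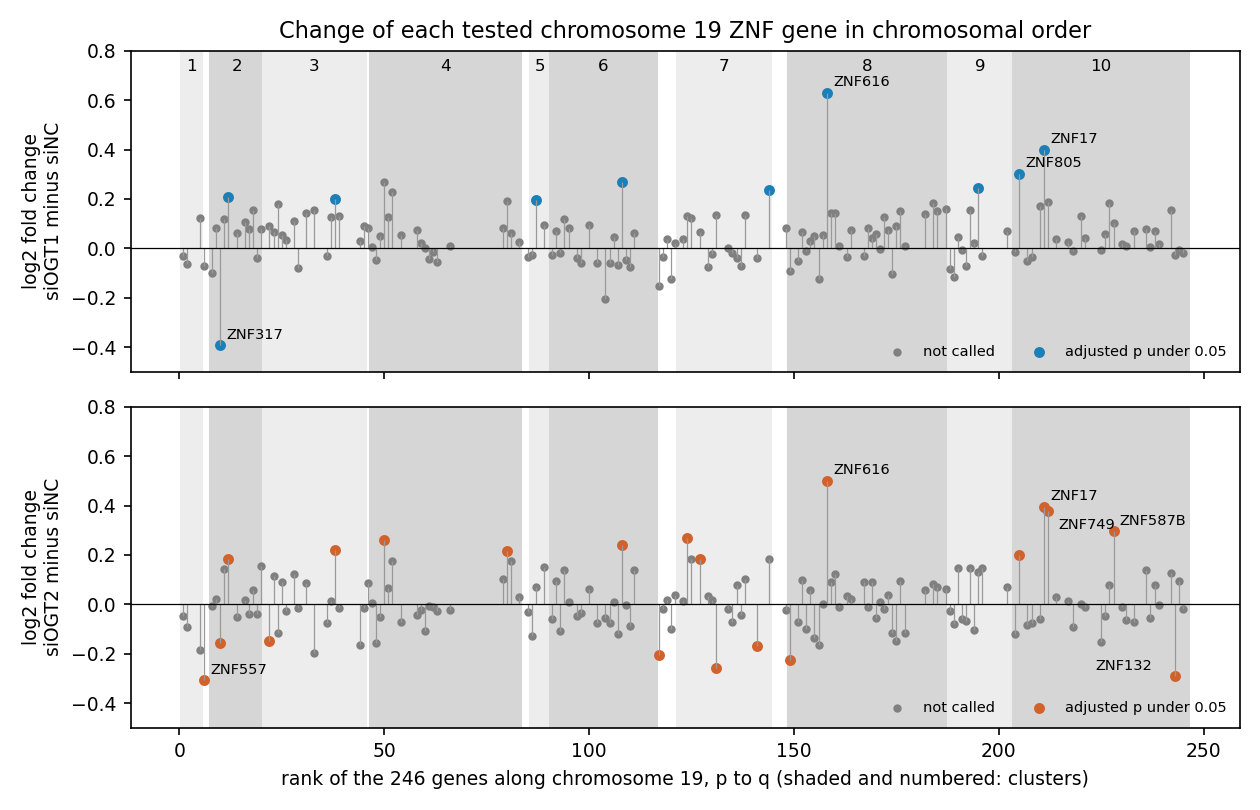
Log2 fold change, on the log2(FPKM + 1) scale, of each tested chromosome 19 ZNF gene against siNC with siOGT1 (top) and siOGT2 (bottom), in the order of the 246 genes along the chromosome; shading and numbers mark the 10 clusters, and colored points were called. Called genes are scattered over clusters 2 to 10 and the gaps between clusters, and most genes lie within 0.25 of 0.

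Called genes came from each protein class. The longest coding sequence of each gene was searched for C2H2 fingers, with a median of 13 and a highest count of 39, and for the KRAB A box, which 203 genes matched and 43 did not; the pattern can miss a box, so the second class is not a class of proteins shown to lack one. Among the 128 tested genes with a match, 10 rose and 4 fell for the mean of both siRNAs, and among the 28 without, 3 rose. These are 10.9% and 10.7% called, where 31.1% of all tested genes were. With siOGT2, 11 rose and 8 fell among those with a match (14.8% called), and 1 rose among the 28 without (3.57%). Both shares lie below the 35.5% of all tested genes called with siOGT2. By number of fingers, 4 of 39 tested genes with at most 9 fingers, 9 of 68 with 10 to 14 and 4 of 49 with 15 or more were called for the mean, all shares below that 31.1%. By likeness to other genes, 5 of the 40 tested genes with at least 10% of their 50-base words in another gene were called, and 12 of the other 116 (12.5% and 10.3%). No difference between classes was tested.

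Level bears on how many genes can be called, so the counts were set beside those of other genes of like level. For the mean of both siRNAs, 14 of the 79 chromosome 19 ZNF genes between 2 and 5 FPKM were called (17.7%), against 20.8% of all tested genes in that range. There, 24 of 138 other chromosome 19 genes (17.4%) and 11 of 81 ZNF genes on other chromosomes (13.6%) were called. At 5 FPKM or more, 3 of 29 were called (10.3%), against 38.1% of all tested genes, 118 of 306 other chromosome 19 genes and 23 of 80 ZNF genes on other chromosomes. Between 1 and 2 FPKM limma called 0 of 48, with 3 at an unadjusted p under 0.05, where 14.4% of all genes were called and 6 of 31 ZNF genes on other chromosomes. In the range of 2 to 5 FPKM, 8 of the 79 were called with siOGT1 (10.1%, beside 10.1% of all tested genes). With siOGT2 it was 16 of the 79 (20.3%, beside 25.7%). With siOGT2 over all levels, 12 of the chromosome 19 ZNF genes rose and 8 fell (7.69% and 5.13%), a balance that turned under other scalings, as given above. Of the 192 tested ZNF genes on other chromosomes, 18 rose and 27 fell (9.4% and 14.1%). Of the 525 other genes of chromosome 19, 143 rose and 43 fell (27.2% and 8.19%). Among all tested genes 22.1% rose and 13.4% fell. These are counts side by side, and the differences between the groups of genes were not tested.

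**Figure D4:**
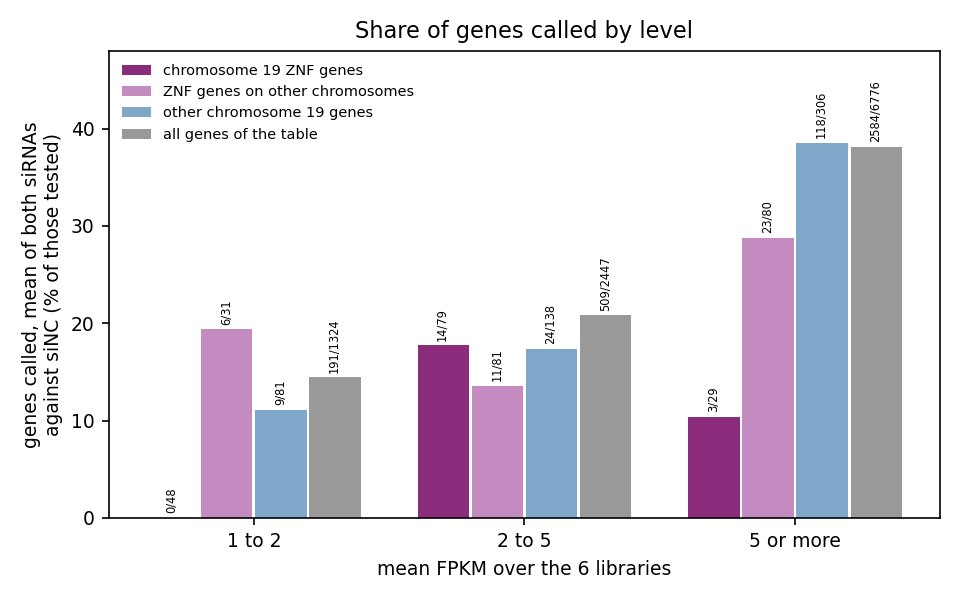
Share of tested genes called for the mean of both siRNAs against siNC (adjusted p under 0.05, limma), in 3 ranges of mean FPKM, for 4 groups of genes, with the number called and tested over each bar. The chromosome 19 ZNF genes are at 0 of 48, 14 of 79 and 3 of 29, and all genes of the table rise from 14.4% to 38.1%.

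The partners through which KRAB zinc finger proteins act were followed with a list of 28 co-repressor genes, of which 26 were tested. With siOGT1, 4 rose and 2 fell; with siOGT2, 6 rose and 3 fell; and for the mean, 5 rose and 2 fell. These are 23.1%, 34.6% and 26.9% of the list, beside 17.6%, 35.5% and 31.1% of all tested genes, so the list as a whole lay near the background. The pair at its center was level: TRIM28 stood at 31.5 and 31.7 FPKM with siNC, then 30.3 and 32.0 with siOGT1, and 31.8 and 32.3 with siOGT2 (log2 fold change 0.00 for the mean, adjusted p = 0.971). SETDB1, at 4.56 and 4.79, 4.48 and 5.07, and 4.75 and 4.46 FPKM, gave the same picture (0.00, adjusted p = 0.975). The SETDB1 groups overlapped, and the siOGT2 libraries of TRIM28 lay just above the controls.

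Single members of the co-repressor list passed. CHD3, a remodeler of the NuRD complex, stood at 29.4 and 29.7 FPKM with siNC, then 33.9 and 33.6 with siOGT1, and 36.7 and 37.7 with siOGT2 (0.26, adjusted p = 0.000164). HDAC1, a histone deacetylase of the same complex, stood at 38.4 and 36.3, 45.9 and 44.4, and 44.3 and 44.5 (0.26, adjusted p = 0.000382). CBX5, which encodes the heterochromatin protein HP1 alpha, stood at 12.4 and 13.1, 14.9 and 14.5, and 15.4 and 15.5 (0.22, adjusted p = 0.00150). In these 3 genes all siOGT libraries lay above both controls. SUMO2, a small protein modifier, fell with siOGT1 alone, at 18.2 and 16.6 FPKM with siNC, then 11.7 and 11.4 with siOGT1, and 18.1 and 17.9 with siOGT2; its difference between the siRNAs was -0.60 (adjusted p = 4.53e-05).

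Zinc finger genes of chromosome 19 that have no ZNF number were listed as well. Of the 21 listed, 20 were found under that name, 8 were tested, and 1 rose and 1 fell for the mean, 25% where 31.1% of all tested genes were called. ZFP36, whose protein binds AU-rich mRNA and speeds its decay, fell from 6.25 and 6.69 FPKM to 4.59 and 4.96 with siOGT1 and 4.384 and 5.497 with siOGT2 (-0.35, adjusted p = 0.00606). ZBTB7A, a repressor also known as LRF, rose from 5.47 and 5.23 to 6.64 and 6.19 and to 6.64 and 6.27 (0.23, adjusted p = 0.00606). Without siNC replicate 2 neither passed (adjusted p = 0.0668 and 0.0627). The finger of ZFP36 is of another type than the C2H2 fingers of the family.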

How the data were processed

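RNA of KGN cells was sequenced in 6 libraries (siNC, siOGT1 and siOGT2, 2 each). The submitters' processing notes name cutadapt 1.15, HISAT2 and GRCh38. What counted the reads, on which annotation and with which strand setting, is not stated in the sources used here, so reads of overlapping or antisense genes cannot be told apart. The deposited values are FPKM made by the authors, and each of the 6 columns belongs to 1 library (0 columns without a sample). Whole reads were recovered from the steps of the deposited FPKM for 99.96% of tested genes, within 0.01 reads; they give depth and an alternative test. Symbols came from a gene name table (19902 of 20036 identifiers named) and positions from GENCODE release 29.

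Genes averaging 1 FPKM or more were tested with limma 3.58.1 in R 4.3.3 on log2(FPKM + 1), with 1 mean per group and an intensity trend (3 residual and 6.308 prior degrees of freedom, two-sided). The fit was also run on simulated reads. Their spread was set near counting error at the read numbers of these genes, so that run does not give the error rate of these calls. Replicate numbers pair no libraries. Word sharing used 50-base words of the GENCODE transcript with the longest coding sequence of each gene, or the longest transcript where none codes. These words were matched exactly to the GENCODE transcripts of all genes. Fingers and KRAB boxes were counted in translated GENCODE coding sequences, since no protein table was used here.

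The members and lists were chosen with earlier results of these data known. Named genes are the 10 largest rises and falls for the mean of both siRNAs and 5 each way for other contrasts, among called genes whose groups do not overlap, the 5 highest in level, the 3 on either side of the filter, OGT, TRIM28, SETDB1 and up to 4 genes of each other list. The alternatives changed the pseudocount, filter, scaling, variance model, pairing, samples and test.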

Additional observations from a re-analysis of the deposited data

Results flagged for a closer look

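The direct comparison of siOGT1 with siOGT2 passed (limma, adjusted p under 0.05) for 7 of the 156 tested chromosome 19 ZNF genes, 4.49%, where 16.6% of all tested genes passed. Of these 7 calls, 0 held in all 6 fits that leave out 1 library, and the difference of ZNF132 passed in 0 of them (adjusted p between 0.0502 and 0.170). The log2 fold change of siOGT1 minus siOGT2 was -0.23 for ZNF317, 0.23 for ZNF557, 0.23 for ZNF627, 0.26 for ZNF132, 0.30 for ZNF441, 0.35 for ZNF844 and 0.39 for ZNF222. The siOGT2 libraries were the lower in 6 of them and the higher in ZNF317. OGT itself did not differ between the siRNAs past the threshold (-0.11, adjusted p = 0.123). The cause of these differences was not tested.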

How the results depend on the processing

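The count settings gave, for siOGT1 higher (9), 3 with no filter, 3 when only genes averaging 5 FPKM or more were tested, 5 with a trimmed mean of log ratios and 16 by limma-voom on recovered reads, an alternative chosen after seeing the data; and for siOGT1 lower (1), 2 without a filter and 2 by voom. For siOGT2 higher (12) they gave 6 without a filter, 1 at 5 FPKM, 5 by quantile normalization and 5 with a trimmed mean; for siOGT2 lower (8), 4 without a filter and 3 at 5 FPKM. For the mean of both siRNAs, the 13 higher became 5 without a filter and 2 at 5 FPKM, and the 4 lower became 1 at 5 FPKM. For siOGT1 against siOGT2, the 6 higher became 1 without a filter and 2 at 5 FPKM, and the 1 lower became 0 without a filter (limma, with 4 of the 238 genes then tested lower at an unadjusted p under 0.05) and 2 by voom. The 7 called in 1 direction with each siRNA became 3 without a filter, 2 at 5 FPKM, 4 by quantile normalization and 3 with a trimmed mean. A filter at 5 FPKM tests fewer genes and no filter tests more. Otherwise the cause was not tested, and the share of all tested genes called under each setting was not counted. Fits without 1 library gave 4 to 8 (siOGT1 higher), 1 to 2 (siOGT1 lower), 6 to 12 (siOGT2 higher), 2 to 8 (siOGT2 lower), 5 to 13 and 1 to 3 (mean), 1 to 5 and 0 to 2 (siOGT1 against siOGT2) and 3 to 6 (each siRNA). The replicate number was only a name (correlations of replicate differences between groups of -0.02, -0.03 and 0.05); with a replicate block, 14 rose and 4 fell for the mean, 8 and 1 for siOGT1, 10 and 9 for siOGT2, and 7 and 1 between the siRNAs. Of the 36 changes of named genes, 9 kept their call in every setting run and 0 reversed; the call was lost in 96 of 584 settings. The median log2 fold change of the family lay within the spread between libraries of its main value in 25 of 68 settings. It ran from 0.02 to 0.07 for siOGT1 and from -0.03 to 0.01 for siOGT2. No scaling moved the median of all genes by 0.1 on the log2 scale, but the family medians are themselves smaller than that. With a trimmed mean of log ratios the median of all genes went from 0.032 to 0.008 for siOGT1 and from 0.045 to 0.009 for siOGT2. The edgeR and DESeq2 alternatives were not run, since the deposited unit is FPKM. At 58 to 111 reads per library, as for ZNF132, counting error alone is wide.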
